A study of Homo sapiens with 2 samples.

Results

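The 10 genes of the immediate-early response and of the AP-1 transcription factor followed here through SET7/9 knockdown were FOS, FOSB, FOSL1, JUN, JUNB, EGR1, ATF3, IER3, DUSP6 and MYC. The members were taken by gene name, as every probe of the array design that carries one of these 10 symbols, out of 25940 gene names, which gave 15 of the 34127 gene probes. ATF3 had 4 probes, IER3 and MYC had 2 each, and the other genes had 1. On both arrays, 14 of the 15 stood well above background in each channel, and these 14 cover all 10 genes. The remaining probe, the second one for MYC, was not well above background in either channel on either array, and its ratio was not used. The accession of 14 of the 15 probes led to the same symbol in RefSeq, and that of the second MYC probe was not matched.

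The RNA came from MKN74 and MKN45, both established human gastric cancer cell lines, grown in medium with serum and transfected by electroporation with 50 nM of SET7/9 siRNA or of negative control siRNA. SET7/9, encoded by SETD7, is a methyltransferase that adds a single methyl group to lysines of histone H3 and of other proteins. Total RNA taken at 48 hrs was hybridised to 1 Agilent 2-colour array per cell line, on which the knockdown sample always carried Cy5 and the control sample Cy3, so that dye and treatment cannot be told apart. The 2 arrays lay on 1 slide and were scanned together. No array was repeated, and which SET7/9 siRNA sequence was hybridised is not given in the sources used here. An error printed beside a log2 ratio is the scanner software's estimate for the spot, not a spread between cultures, and the number of arrays limits the precision of every value.

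Immediate-early genes are those that a cell transcribes within minutes of a stimulus without making new protein first, and most of them fall back soon after. FOS family proteins pair with JUN family proteins to form AP-1, which binds the sequence TGACTCA, while ATF3 belongs to the related ATF and CREB group, which binds the cyclic AMP response element (CRE) TGACGTCA. EGR1 and FOS are classical targets of the serum response factor, which binds the CArG box together with partners that the ERK kinases phosphorylate. DUSP6 is a phosphatase that takes phosphate off ERK, IER3 is an early gene tied to survival signalling, and MYC is a growth-promoting transcription factor that is itself an early gene.

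The promoter sequences show which of these elements the reference genome places near the start of each gene. RefSeq promoters, from 250 bases before to 50 after the transcription start on GRCh38.p14, were held for 7 of the 10 genes, with 2 for ATF3 and thus 8 in all; FOSL1, IER3 and MYC had no entry. The AP-1 motif TGACTCA was in 0 of the 8, against 4.95% of all 35116 promoters in the table, and the CRE TGACGTCA was in 0 of the 8, against 1.85%. Its first 5 bases, TGACG, which the CRE itself contains, were in 5 of the 8 on either strand, against 24.6% of all promoters. A CArG box lay in 1 of the 8, against 1.29% of all promoters, and a kappa B box in 0 of the 8, against 11.3%. Both strands were searched for each motif, but only in this window, so an element farther upstream, in FOS or any other gene, would not be counted. The promoter with the CArG box was that of EGR1, with 2 matches, shown here in capitals because no other of the 8 promoters held a match. The stretch covers positions -125 to -54 from the start, chr5:138465354-138465425 on the plus strand of GRCh38.p14.
EGR1 promoter: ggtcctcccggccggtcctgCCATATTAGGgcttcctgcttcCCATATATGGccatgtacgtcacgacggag
The TGACG matches of the AP-1 members are shown in 35 bases each, with the match in capitals, because these 4 genes share the match and their levels are compared between the cell lines below. They begin at position -64 in FOS (chr14:75278749-75278783, plus strand), -60 in FOSB (chr19:45467921-45467955, plus strand), -123 in JUN (chr1:58784151-58784185, minus strand) and -137 in JUNB (chr19:12791334-12791368, plus strand). EGR1 held the match on the opposite strand, at -135 and -66, and the second of these lies near the end of the stretch above.
FOS promoter: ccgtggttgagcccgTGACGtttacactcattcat
FOSB promoter: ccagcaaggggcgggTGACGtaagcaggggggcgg
JUN promoter: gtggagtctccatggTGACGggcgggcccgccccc
JUNB promoter: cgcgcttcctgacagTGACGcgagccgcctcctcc
A match of letters is a description of the reference sequence and says nothing of a factor bound there in these cells.

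SETD7 was checked first. At its brighter probe (chr4:140427692-140427751 on GRCh37) the log2 ratio of SET7/9 siRNA over negative control siRNA was -2.03 in MKN74 and -1.95 in MKN45 (error 0.28 in each), while a second SETD7 probe (chr4:140453844-140453903) gave 0.24 and -0.23. GAPDH stood at -0.08 and -0.00. All 6 epithelial markers looked at, among them EPCAM and KRT8, were well above background on both arrays, with control signals from 4519 in MKN74 and 7590.3 in MKN45 upward. The 11 fibroblast, leukocyte and endothelial markers had control signals of at most 172 in MKN74 and 50.6 in MKN45. Some of them were nonetheless detected. Of 4 fibroblast, 4 leukocyte and 3 endothelial markers, 1, 3 and 2 were well above background in at least 1 channel in MKN74. In MKN45 the counts were 1, 3 and 3. COL1A1, CD14 and CDH5 were well above background in both channels on both arrays.

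None of the 10 genes was changed by as much as 1.5-fold after SET7/9 knockdown in either cell line. The cutoff is the one the study used and equals 0.585 on the log2 scale; a gene with several probes was counted by its brightest kept probe, a kept probe being one detected well above background by either channel in 50% or more of its spots. Among kept probes, 3.78% were at least that much higher and 1.76% lower in MKN74, and 4.81% and 1.97% in MKN45. Among probes well above background in both channels, as all of these were, the shares in either direction were 2.09% in MKN74 and 2.43% in MKN45, and 0 of 10 genes is near that background. By gene, the log2 ratios ran from -0.35 to 0.44 in MKN74, with a median of -0.06, and from -0.21 to 0.51 in MKN45, with a median of -0.08. The medians over all kept probes were 0.01 in each. In each line 3 genes lay farther from 0 than their own spot error: FOS, FOSB and DUSP6 in MKN74, and FOSB, EGR1 and MYC in MKN45. The smallest of these ratios were those of FOS in MKN74 and of MYC in MKN45. Among probes well above background in both channels, 16.9% and 25.9% lay as far from 0 as these 2. The share of all probes beyond their own error was not counted, so 3 of 10 is not read as a result.

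**Figure D1:**
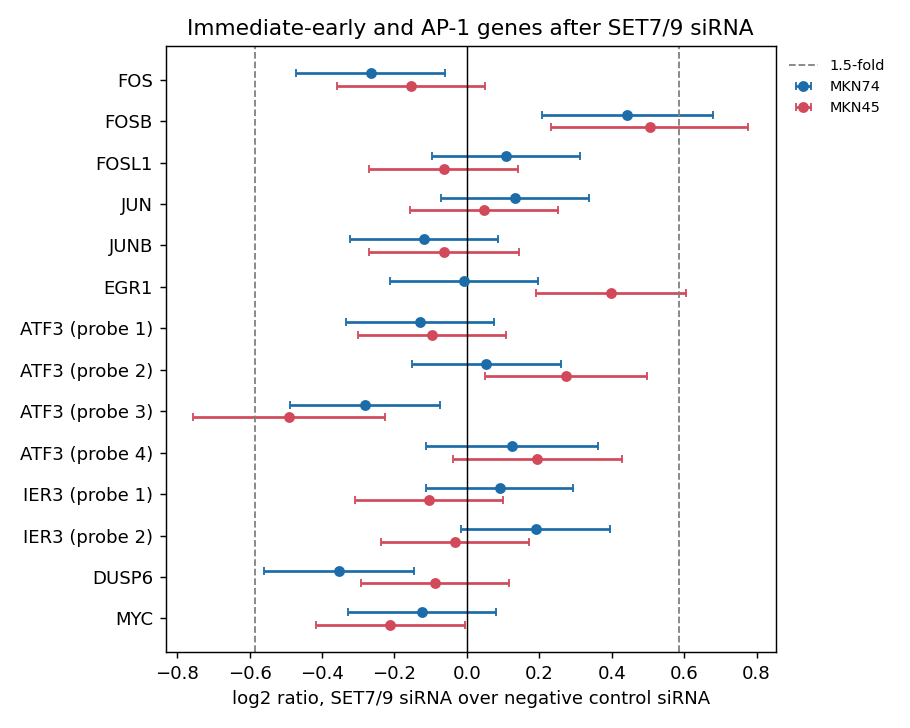
Log2 ratio of SET7/9 siRNA over negative control siRNA for the 14 measured probes of the 10 genes (x axis), with 1 point per probe and cell line, bars for the scanner software's error of the spot and dashed lines at 1.5-fold. Every point lies inside the dashed lines; FOSB lies to the right of 0 in both lines, and the 4 ATF3 probes spread to both sides.

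The FOS family showed opposite signs among its members. The FOS probe (chr14:75748214-75748273, plus strand, GRCh37, as for all probes here) had a scaled signal of 796 with negative control siRNA and 662 with SET7/9 siRNA in MKN74, and of 2973 and 2674 in MKN45. The signal with SET7/9 siRNA was below that of the control in both lines, with log2 ratios of -0.27 (error 0.21) and -0.15 (error 0.20). Of the probes detected in both channels whose control signal was within 1.5 times of its own, called probes of like signal from here on, 9.59% in MKN74 and 27.7% in MKN45 lay as far from 0.

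FOSB, a FOS relative that pairs with the same JUN proteins, was the member with the highest log2 ratio in both lines. Its probe (chr19:45978205-45978264, plus strand) gave signals of 57.5 and 78.2 in MKN74 and of 37.9 and 53.8 in MKN45, control first. The log2 ratio was 0.44 (error 0.24) in MKN74 and 0.51 (error 0.27) in MKN45, or ratios of 1.36 and 1.42 on the linear scale. These signals were dim, and among probes of like signal 9.37% and 11.3% lay as far from 0. With another background correction and loess normalization (normexp, offset 50), FOSB came to 0.33 and 0.24.

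FOSL1, also called FRA-1, is the FOS relative most often tied to invasive growth. Its probe (chr11:65660098-65660157, minus strand) had signals of 1351 and 1456 in MKN74 and of 501 and 479 in MKN45. The log2 ratios of 0.11 and -0.06 (error 0.20 in each) were within the spot error on both arrays.

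The JUN partners stayed within their spot errors. JUN (chr1:59246511-59246570, minus strand) gave 489 and 536 in MKN74 and 1951 and 2014 in MKN45, for log2 ratios of 0.13 and 0.05 (error 0.20 in each). JUNB, which can replace JUN in the AP-1 dimer, was measured at chr19:12902998-12903057 on the plus strand. Its signals of 383 and 353 in MKN74 and of 192 and 184 in MKN45 gave log2 ratios of -0.12 (error 0.20) and -0.06 (error 0.21). All 4 ratios of these 2 genes were smaller than their errors.

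EGR1, a zinc finger factor of the early response, had the widest gap in log2 ratio between the cell lines among the 10 genes. Its probe (chr5:137804891-137804950, plus strand) gave 4784 with negative control siRNA and 4756 with SET7/9 siRNA in MKN74. In MKN45 it gave 717 and 945. The log2 ratio was -0.01 (error 0.20) in MKN74 and 0.40 (error 0.21) in MKN45. Of 2818 probes with a like control signal in MKN45, 1.45% lay as far from 0 as EGR1, and 95.1% of 1403 did so in MKN74. The difference between the 2 log2 ratios was 0.41 with an error of 0.29, and 7.27% of the 17362 probes measured in both channels on both arrays had a difference as large; with 1 array per line it could not be tested. Every alternative gave EGR1 in MKN45 a log2 ratio between 0.37 and 0.40.

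ATF3, a stress-induced factor that can repress or activate with JUN partners, was the member whose probes disagreed. The brightest probe (chr1:212793856-212793915, plus strand) had signals of 6389 and 5845 in MKN74 and of 1016 and 951 in MKN45, and log2 ratios of -0.13 and -0.10 (error 0.20 in each). The second probe was at 0.05 (error 0.21) and 0.27 (error 0.22), the third at -0.28 (error 0.21) and -0.49 (error 0.26) and the fourth (chr1:212792519-212792578) at 0.12 and 0.19. In MKN45 the second probe and the third thus lay on opposite sides of 0, each by more than its own error. The range over the 4 probes was 0.41 in MKN74 and 0.76 in MKN45, where the median over all genes with at least 2 probes measured in both channels was 0.16 and 0.17. A range as wide occurred in 11.7% and 2.36% of those genes. The second probe and the third are shown in full, on the plus strand, because their ratios oppose each other.
ATF3 probe at chr1:212788502-212788561: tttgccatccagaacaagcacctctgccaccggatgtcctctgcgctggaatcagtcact
ATF3 probe at chr1:212792837-212792896: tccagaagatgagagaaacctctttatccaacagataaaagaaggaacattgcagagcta
The third probe was dim in MKN45, with signals of 43.7 and 31.1, and its log2 ratio there was -0.19 after normexp and loess. No direction is given for ATF3 as a gene. The 2 IER3 probes, by contrast, lay 0.10 apart in MKN74 and 0.07 apart in MKN45.

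MYC is the member with the best within-array precision, since its brighter probe was printed 10 times. Signals were 13699 and 12581 in MKN74 and 3288 and 2840.4 in MKN45, control first. The log2 ratio was -0.12 in MKN74 (SD 0.033 over 10 spots) and -0.21 in MKN45 (SD 0.023 over 10 spots); the software's error was 0.20 in each line. The spread over spots covers the printing and reading of 1 array and no variation between cultures. Among probes of like control signal, 36.3% in MKN74 and 13.5% in MKN45 lay as far from 0, and with background-subtracted signals that were only centred the MKN74 value was 0.02.

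DUSP6, the ERK phosphatase, and IER3 are the 2 members left. DUSP6 (chr12:89742144-89742203, minus strand) gave 2861 and 2241 in MKN74, a log2 ratio of -0.35 (error 0.21), the lowest of the 10 genes there. In MKN45 it gave 2962 and 2786, a log2 ratio of -0.09 (error 0.20). Of 1799 probes of like signal in MKN74, 2.89% lay as far from 0, against 52.3% of 1779 in MKN45. The MKN74 value of DUSP6 was -0.23 after normexp and loess, and -0.23 with background-subtracted signals that were only centred. The 2 IER3 probes gave 19156 and 20393 in MKN74 and 43354 and 40289 in MKN45 at chr6:30711312-30711371, and 7571 and 8635 and then 15537 and 15184 at chr6:30711576-30711635, both on the minus strand. The log2 ratios were 0.09 and 0.19 in MKN74 and -0.11 and -0.03 in MKN45, all within the error of 0.20. Both IER3 probes depended on the dye normalization, reaching 0.40 and 0.42 in MKN74 when background-subtracted signals were only centred on the median.

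**Figure D2:**
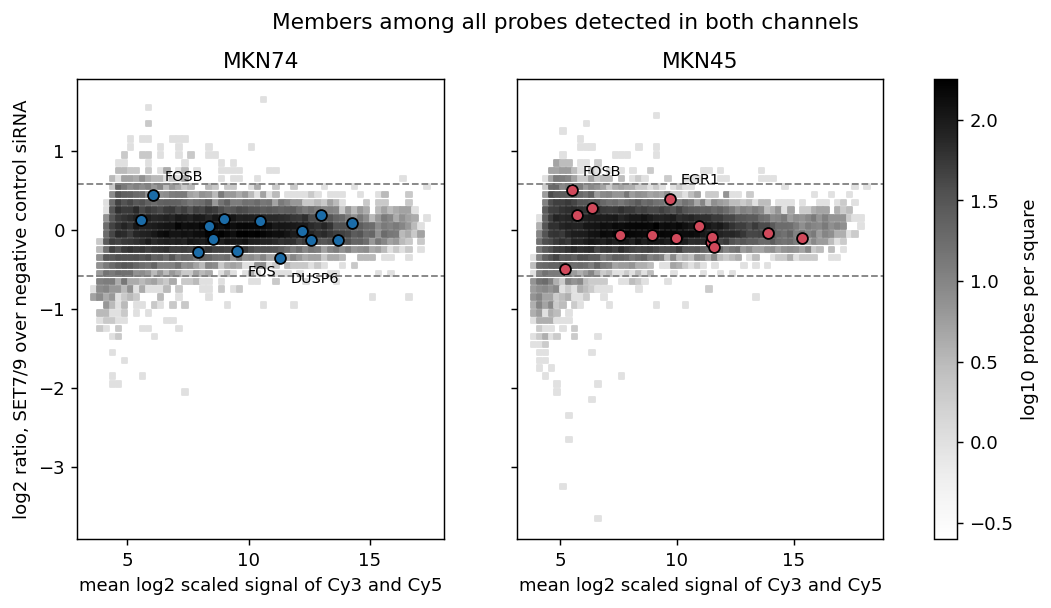
Log2 ratio of SET7/9 over negative control siRNA (y axis) against the mean log2 scaled signal of both channels (x axis) in MKN74 (left) and MKN45 (right). Grey squares count all probes well above background in both channels, darker for more probes on a log10 scale; coloured points are the 14 member probes, and dashed lines mark 1.5-fold. FOSB sits among the dim probes where the grey spread is wide, while EGR1 in MKN45 and DUSP6 in MKN74 sit at the edge of a narrower spread.

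Taking the 2 cell lines as 2 samples of the knockdown, limma with Benjamini-Hochberg adjustment called 0 of 19595 probes at an adjusted p under 0.05 (0%), with 2569 at an unadjusted p under 0.05. The smallest adjusted p of a member was 0.355, for FOSB, whose mean log2 ratio was 0.47 and which was higher in 2 of 2 lines. After normexp and loess, limma called 1708 probes (8.72%), 553 of them lower and 1155 higher, and 2 members were among them: FOS at a mean of -0.23 (adjusted p = 0.0437) and FOSB at 0.29 (adjusted p = 0.0205). With only probes detected in both channels it called 2 probes, with median centring 0 and with the deposited log2 ratios 0, and no member in any of these. The fit has 1 residual degree of freedom per probe.

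Of the 10 genes, 9 differed at least 1.5-fold between MKN45 and MKN74 in control cells. Levels were taken from the Cy3 channel, each array divided by its 75th percentile, and each probe was compared only with itself. FOS, JUN and IER3 were higher in MKN45, and FOSB, FOSL1, JUNB, EGR1, ATF3 and MYC were lower; 35.8% and 27.9% of all 21610 probes detected in Cy3 on at least 1 array passed the cutoff in these directions. Among the 17414 probes detected on both arrays, 56% passed 1.5-fold (27.9% higher and 28.1% lower in MKN45), 34.5% passed 2-fold and 10.1% passed 4-fold in either direction, where the members counted 9, 7 and 3 of 10. The median size of the difference was 1.67 over the members and 0.69 over those 17414 probes. Each line is 1 array, so that line, culture and array cannot be told apart, nor can less RNA per cell and fewer cells that make it.

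The 2 founding partners of AP-1 were both higher in MKN45. FOS was 3.74-fold higher there (log2 difference 1.90, error 0.20) and JUN 3.99-fold higher (1.995, error 0.20). In the Cy5 channel, which holds the cells of each line transfected with SET7/9 siRNA, the log2 differences were 2.004 and 1.90. Of all probes detected on both arrays, 11.4% differed as much as FOS and 10.1% as much as JUN.

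The other AP-1 members went the opposite way. FOSL1 was 2.70-fold higher in MKN74 (log2 difference of MKN45 minus MKN74 -1.43, error 0.20), JUNB 1.996-fold (-0.997, error 0.21) and FOSB 1.52-fold (-0.60, error 0.30). FOSB and JUNB were the members nearest the cutoff among those that passed it, and 55.2% and 34.6% of probes differed as much. FOSB fell short of 1.5-fold after Aquantile scaling, after median scaling and in Cy5, where it ranged from -0.55 to -0.46.

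EGR1 had the largest difference of any member, at 6.67-fold higher in MKN74 (log2 difference -2.74, error 0.20), and 4.73% of probes differed as much. With SET7/9 siRNA the difference was 5.07-fold (-2.34), the gap between channels being the EGR1 response in MKN45 described above. MYC was 4.17-fold higher in MKN74 (-2.06, error 0.20) and 4.46-fold in Cy5. DUSP6 did not pass the cutoff (0.05, error 0.20), and IER3 was 2.26-fold and 2.05-fold higher in MKN45 at its 2 probes.

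ATF3 was higher in MKN74 at 3 of its 4 probes, by 6.29-fold, 4.31-fold and 6.12-fold. The fourth probe showed nearly equal signals of 45.2 and 49.2, a log2 difference of 0.12 (error 0.26), and -0.13 after normexp and Aquantile scaling; with GAPDH set equal in both lines it was 0.90, past 1.5-fold in the direction opposite to the other 3. The range of 2.77 over the 4 probes was as wide or wider in 2.70% of the 3108 genes with at least 2 probes compared, whose median range was 0.47. What transcript this probe reads was not tested.

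All 14 probes kept their sign between the Cy3 and Cy5 channels, with a largest gap of 0.40, at EGR1. GAPDH, a glycolytic enzyme often used as a loading control, was itself 1.72-fold higher in MKN74 by the 75th percentile scaling. Setting GAPDH equal in both lines adds 0.78 to each log2 difference and leaves FOS, JUN, IER3 and DUSP6 higher in MKN45 and FOSL1, EGR1, MYC and 3 of the 4 ATF3 probes lower, each past 1.5-fold; it takes JUNB to -0.22 and turns FOSB to 0.18. The directions of FOS, JUN, IER3, FOSL1, EGR1 and MYC, and of ATF3 at 3 probes, were thus the same under each scaling tried. JUNB and DUSP6 also kept their sign, but passed 1.5-fold under only some of the scalings. FOSB and the fourth ATF3 probe changed sign.

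**Figure D3:**
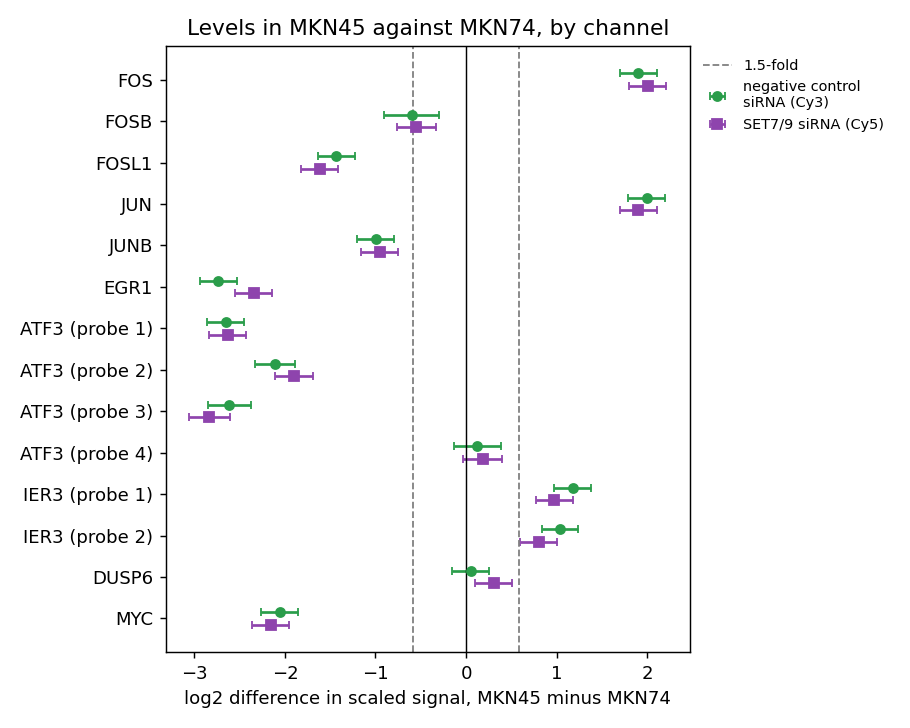
Log2 difference in scaled signal, MKN45 minus MKN74, for the 14 measured probes (x axis), in the negative control siRNA channel (circles) and the SET7/9 siRNA channel (squares), with bars for the scanner software's error and dashed lines at 1.5-fold. FOS, JUN and IER3 lie to the right in both channels and EGR1, MYC and 3 ATF3 probes at or beyond -1.90 to the left; the fourth ATF3 probe and DUSP6 lie near 0.

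The wider pathway was read from lists of genes by role, with 1 probe per gene. Of the 16 other AP-1 and bZIP partners reported here, 14 were measured in MKN74 and ran from -0.29 to 0.31, with a median of -0.01. In MKN45 the 13 measured ran from -0.34 to 0.42, with a median of -0.02, and none passed 1.5-fold in either line at its counted probe. Another ATF2 probe, not the counted one, stood at 0.63 in MKN74, past the cutoff. Among 28 other immediate-early genes, SGK1, a kinase of the serum and glucocorticoid response, passed with both channels detected: signals of 521 and 956 in MKN74 gave a log2 ratio of 0.87 (error 0.22), and 1450.5 and 1704 in MKN45 gave 0.23 (error 0.21). The median of that list was 0.09 over 24 measured genes in MKN74 and 0.20 over 24 in MKN45.

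Of 15 genes of ERK feedback and output, DUSP7, an ERK phosphatase related to DUSP6, was lower in MKN45 at -0.91 (error 0.43). Its signals there, 21.5 and 11.4, were close to the detection limit, the log2 ratio was -0.24 after normexp and loess, and in MKN74 the control channel was not well above background. None of the 18 upstream kinases and factors, the 11 genes of the MYC network or the 12 MYC target genes passed with both channels detected in either line. Their medians lay between -0.08 and 0.02. Another probe of MXD4, a gene of the MYC network, was not the counted one and stood at -0.595 in MKN74.

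The AP-1 target genes were the list with most genes past the cutoff. Of 10 detected in both channels in MKN74, MMP1, IL8 and IL11 were at least 1.5-fold higher, where 2.09% of all such probes passed in either direction. Over the 14 kept there, 5 passed. Among dim probes the share was higher, at 3.90% for probes of like signal to FOSB and 5.07% for those like the fourth ATF3 probe. The log2 ratios of MMP1, IL8 and IL11 were 1.13 (error 0.26), 1.40 (error 0.26) and 0.95 (error 0.22). Their control signals were 34.4, 38.6 and 248. Those of MMP1 and IL8 were thus below the dim signals of FOSB (57.5) and of the fourth ATF3 probe (45.2). MMP1 encodes a collagenase, IL8 a neutrophil chemokine and IL11 a cytokine of the IL-6 family. In MKN45 MMP1 stood at 0.55 (error 0.22) and IL11 at 0.65 (error 0.31), and the control channel of IL8 was not well above background. The IL11 signals there, 21.8 and 34.2, were close to the detection limit. The median of the list was 0.31 in MKN74 and 0.17 in MKN45, but it was 0.08 and 0.12 after normexp and loess, 0.14 and 0.11 with both channels detected, and 0.08 in MKN45 without a filter. IL11 and the matrix metalloproteinases were among the genes the study itself drew from these arrays, so that the list is not independent evidence of its direction. After normexp and loess, MMP1 came to 0.55, IL8 to 0.77 and IL11 to 0.83 in MKN74, and IL11 to 0.12 in MKN45.

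**Figure D4:**
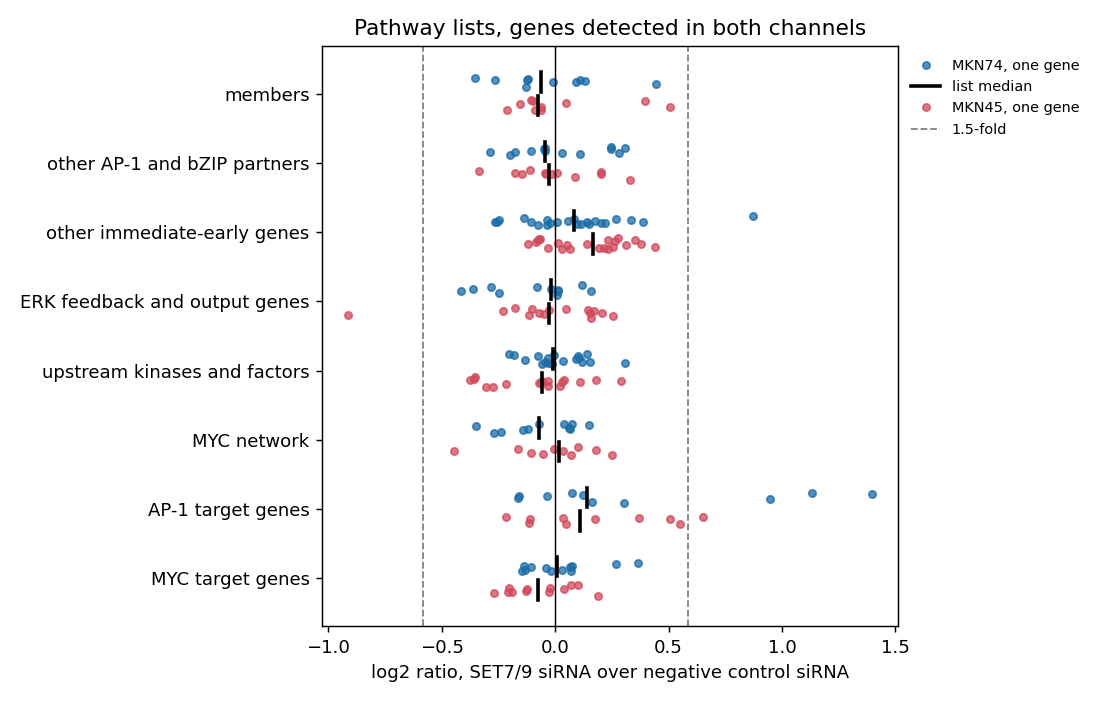
Log2 ratio of SET7/9 over negative control siRNA (x axis) for the genes of each pathway list (rows) that were well above background in both channels, with 1 point per gene, MKN74 above MKN45, black bars at the list medians and dashed lines at 1.5-fold. The 10 members cluster around 0. Beyond the dashed lines lie 3 AP-1 target genes, SGK1 and DUSP7. IL11 is the only gene to do so in both lines, and it was dim in MKN45.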

How the data were processed

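Per the file headers, the arrays were read with Agilent Feature Extraction 10.7.3.1. The authors deposited, for every spot, the intensity of each dye on a linear scale as read, after background subtraction and after dye normalization, flags for signal well above background, and the log10 ratio (Cy5 to Cy3) that the software derived, together with its error and p-value. The authors also deposited log2 ratios per probe, rounded to 2 decimals. Probe coordinates are on GRCh37.

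Here log10 ratios were converted to log2, spots of a probe were averaged, and control spots and those marked as outliers were dropped. Printed signals are processed intensities divided by the array's 75th percentile of Cy3 and put on a common scale. The background shares count probes past 1.5-fold, and those of like signal lie within 1.5 times of the member's own Cy3 signal. Gene symbols are those of the array design. With 1 array per cell line no test was made within a line. The common response was fitted in limma 3.58.1 (R 4.3.3) and the step was tested on simulated data; tables were made in Python 3.11.15 with pandas 2.3.3. Named are all members, SETD7, GAPDH, and each listed gene whose counted probe passed 1.5-fold with both channels well above background in at least 1 line; genes of the line comparison in the closing section were chosen after their values were seen. The members and lists were chosen with earlier results of these data known. One listed gene is not reported here and was left out of its list's counts. A planned comparison of protein sequences was not run, and promoters came from RefSeq. Alternatives covered background correction, normalization, filters, scaling and cutoff; 2 of them were chosen after seeing the data.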

Additional observations from a re-analysis of the deposited data

Results flagged for a closer look

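SPRY1, an inhibitor of receptor kinase signalling, had a brighter probe with opposite signs in the 2 cell lines. That probe stood at a log2 ratio of -0.36 in MKN74 (error 0.21) and at 0.21 in MKN45 (error 0.20), a difference of 0.57. The other SPRY1 probe stood at -0.44 in MKN74 and at -0.03 in MKN45, so the opposite sign rests on 1 probe. The MKN45 value of the brighter probe only just exceeded its error. SPRY1 was picked for this difference, and the share of all probes with one as large was not counted. With 1 array per cell line the difference was not tested.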

How the results depend on the processing

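The count of member genes past 1.5-fold after knockdown was 0 in both lines under every alternative run, and member counts of the line comparison stayed within 1.5 times of their value. In MKN45 FOSB came close to the cutoff, at 0.581 with background-subtracted signals that were only centred. FOSB turned from -0.60 to 0.18 in the line comparison with GAPDH set equal in both lines, a scaling chosen, like the background-subtracted signals that were only centred, after seeing the data. The pathway lists depended on the settings: 8 genes higher in MKN74 became 3 after normexp and loess, 4 with both channels detected, 4 in the deposited table and 5 at 2-fold, and 4 higher in MKN45 became 0, 1, 1 and 1. The 1 gene lower in MKN45 became 0 after normexp and loess, 0 at 2-fold and 4 without a filter. In limma, 0 lower and 0 higher probes became 553 and 1155 after normexp and loess, and 2 lower with both channels detected. The cause was not tested. Dim probes limit FOSB, DUSP7 and 2 ATF3 probes, and also MMP1 and IL8 in MKN74 and IL11 in MKN45. Leaving out 1 array was not possible, as no residual degree of freedom is left. No paired analysis was possible because the replicate numbers only name the arrays; the 2 treatments of a line are already set against each other within its array, in the log2 ratio that limma fitted.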

Other observations

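Among other early genes, MKN74 and MKN45 differed widely in control cells. Of 20 immediate-early genes beside the members that were detected in Cy3 on both arrays, 5 were at least 1.5-fold higher in MKN45 and 11 lower, where 27.9% and 28.1% of all such probes passed in these directions. BTG2, an antiproliferative gene, was 19.3-fold higher in MKN45. NAB2, a corepressor of EGR1, was 15.9-fold higher in MKN74, and so were CYR61, a secreted matrix protein, at 8.20-fold and GADD45B, a stress gene, at 7.93-fold. Of 12 other AP-1 and bZIP partners, 7 were lower in MKN45 and 1, FOSL2, was 2.13-fold higher; MAFF was 8.01-fold and CEBPB 7.28-fold higher in MKN74. With GAPDH set equal in both lines, the counts were 7 higher and 5 lower for the early genes and 3 higher and 6 lower for the partners.

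Genes around the ERK pathway differed in both directions. Of 12 genes of ERK feedback and output, 5 were higher and 6 lower in MKN45, and 6 and 4 when GAPDH was set equal. The largest differences among them were SPRY4, an inhibitor of the pathway, and EPHA2, an ephrin receptor, at 6.24-fold and 3.46-fold higher in MKN74, and ETV1, an ETS factor, and EPHA4, another ephrin receptor, at 4.09-fold and 3.49-fold higher in MKN45. Of 8 AP-1 target genes detected in Cy3 on both arrays, 1, MMP1, was 3.55-fold higher in MKN45 and 5 were lower. Of the 12 detected on at least 1 array, 3 were higher and 7 lower. CD44 and PLAU, not well above background in the control channel of MKN74, were the others higher in MKN45. Their control signals were 4.26 and 14.3 in MKN74 and 35145 and 1306 in MKN45. AREG and HBEGF, both ligands of the EGF receptor, were 36.4-fold and 3.86-fold higher in MKN74, and between them in size lay IL11 at 11.4-fold and HMOX1, a heme-degrading enzyme, at 6.22-fold. IL11 was dim in MKN45, with a control signal of 21.8. Of 17 upstream kinases and factors, 0 were higher and 9 lower in MKN45, with 5 higher and 4 lower when GAPDH was set equal. Beside the 4.17-fold higher MYC of MKN74, the 12 MYC target genes had a median log2 difference of -0.02, with 1 higher and 4 lower in MKN45, and 8 higher and 1 lower when GAPDH was set equal. All other counts in this section take only genes detected in Cy3 on both arrays. Apart from CD44 and PLAU, genes were named for the largest differences among those so detected in the early, partner, ERK output and AP-1 target lists. FOSL2 and MMP1 were named as the only genes of their lists, so detected, that were at least 1.5-fold higher in MKN45. All were chosen after the values were seen, and no difference between the lines was tested.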
